A study of Mus musculus with 6 samples.

Results

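Transcripts of the enzymes that take up glucose, split it to pyruvate and burn pyruvate in the mitochondrion were followed in long-term blood stem cells (LT-HSC, haematopoietic stem cells) from mice with and without a working Itpkb gene. The set is a list of names with no limit on measured values, although it was drawn up with earlier results of these data known. It holds 41 symbols for glucose transporters, glycolytic enzymes, the pyruvate dehydrogenase complex and enzymes of the tricarboxylic acid (TCA) cycle. Of these, 40 were in the table, and all 40 were among the 12008 genes tested. Pyruvate kinase is listed there as Pkm, which covers both spliced forms, and Pkm2 has no row of its own.

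Itpkb encodes inositol-trisphosphate 3-kinase B, an enzyme of inositol phosphate signalling. The ItpkB-/- cells came from C57BL/6 mice homozygous for an ENU-induced allele called Ms T-less, and the wild-type (WT) cells from litter mates. ENU is a chemical mutagen used to make heritable mutations, and the labels name no Cre driver or transgene. LT-HSC were sorted from lineage-depleted bone marrow as LSK cells (Sca-1 and Kit positive) that were CD34-, CD150+, CD48- and Flk2-. Each genotype had 3 libraries, and each library was made from a separate pool of 4 mice, so that differences between single animals cannot be seen. Ages were matched but are not given in the labels.

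Glycolysis splits glucose to pyruvate in the cytosol and yields ATP without oxygen. Pyruvate is then either reduced to lactate by lactate dehydrogenase and exported, or carried into the mitochondrion, where pyruvate dehydrogenase feeds its carbon to the TCA cycle. Quiescent LT-HSC are known for relying on glycolysis and for low mitochondrial respiration. Pyruvate dehydrogenase kinases hold pyruvate out of the TCA cycle, and a shift towards oxidative metabolism accompanies activation and differentiation.

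Values are normalized CPM (read counts scaled for library size), gene counts that the authors divided by 1 factor per library. The libraries held 4024203 to 7470329 reads in genes, and 3 reads, taken as the detection floor, were worth 0.393 to 0.746 normalized CPM. All 12 genes on a list of LT-HSC genes were detected, with summed levels of 3346 to 3958 in WT and 2122 to 2800 in ItpkB-/- libraries (3 each), and 6 of the 12 fell by limma. On the other marker lists 4 of 18 G2/M genes rose (15 with the block, and all 18 had a positive difference). Itga2b and Gp1ba of 8 megakaryocyte, Tfrc and Epor of 12 erythroid and Sparc of 4 stromal and endothelial genes tested also rose. These lists were split, with negative differences in 3 megakaryocyte, 6 erythroid and 2 stromal and endothelial genes. With the block 4 erythroid genes passed as higher and 2 as lower, and 3 megakaryocyte and 2 stromal and endothelial genes as higher only. All 3 genes for the markers sorted as negative (Cd34, Cd48 and Flt3) had a positive difference. None passed by limma or edgeR, and Cd48 and Flt3 passed as higher with the block. Of 6 monocyte and macrophage genes tested, 4 differences were positive, none passed by limma or edgeR and 2 passed as higher with the block. The 9 in the table summed to 393 normalized CPM for ItpkB-/- library 2. Libraries 1 and 3 of that genotype were at 116 and 30.8, and WT libraries at 27.0 to 68.5. The part of these lists in the results on the enzymes was not tested. The 12 lymphocyte genes summed to 31.6 to 41.3 normalized CPM in the 6 libraries. ItpkB-/- library 2 stood apart: the 19 granulocyte genes in the table, led by Mpo, summed to 19135 normalized CPM there, to 7000 and 1041 in ItpkB-/- libraries 1 and 3, and to 4031, 2878 and 831 in WT libraries 1 to 3. In each same-numbered pair the ItpkB-/- library had the higher granulocyte sum. None of the 19 genes passed by limma or edgeR (1 had an unadjusted p under 0.05 by limma), and 16 passed as higher with the replicate number as a block. None of these granulocyte genes was at 0 in all libraries. Results are also given without ItpkB-/- library 2, because of its granulocyte sum. Itpkb itself was at 10.2, 14 and 18.2 normalized CPM for ItpkB-/- and 22.1, 23.6 and 25.1 in WT libraries (log2 difference -0.73, limma, adjusted p = 0.172, and 0.0541 with the block), and the level of a transcript does not test a mutation of unstated position.

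In ItpkB-/- LT-HSC the 3 members of the lactate step passed the test, and no member of pyruvate dehydrogenase or the TCA cycle did. No call held in every fit. Of 7 other tested genes of lactate and pyruvate transport none passed by limma or edgeR, and 1 passed with the block. The median log2 difference was 0.18 over pyruvate dehydrogenase and the TCA cycle and 0.11 over uptake, glycolysis and lactate. Of the 40 members, all of which were tested, 3 rose (Ldha, Eno1 and Slc16a3), 2 fell (Ldhb and Aldoc) and 35 did not pass, by limma at an adjusted p of at most 0.15. Over all 12008 genes tested, 5.5% passed, 2.27% as higher and 3.24% as lower, so that the 5 members called are 12.5% of the set beside 5.5% of all genes. All 5 belong to the 21 members of glucose uptake, glycolysis and lactate handling. The median log2 difference over the 40 members was 0.16, against 0.00 over all genes, and 26 of the 40 were positive. By limma 9 members had an unadjusted p under 0.05, beside 1858 of the 12008 genes tested. At an adjusted p of at most 0.05 no member passed by limma or edgeR, where 1.52% of all genes passed by limma. By DESeq2 4 members passed at that limit, and the share of all genes there is not given. With the replicate number as a block 7 members passed at that limit, where 8.87% of all genes did, namely the 5 called members, Pgk1 and Pgam1. The study itself also asked for a fold above 1.4 and a log2 level above 4, which 3.22% of all genes met, and of the members only Eno1, Aldoc and Ldhb.

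**Figure D1:**
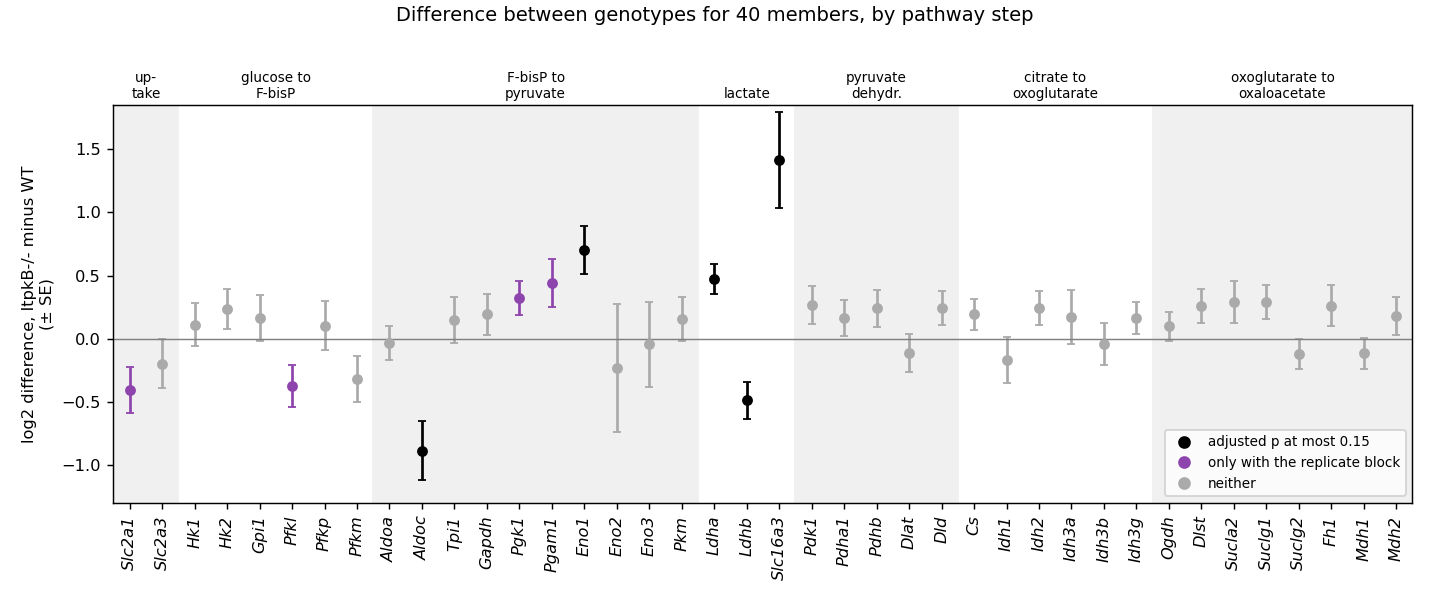
Log2 difference (ItpkB-/- minus WT, of log2(value + 1), with its standard error) for 40 members in the order of the pathway. Black points passed at an adjusted p of at most 0.15, purple points passed only in the fit with a replicate block, and grey points in neither. The black points lie in the block from aldolase to pyruvate and at the lactate step, where Slc16a3 is highest at 1.41 and Ldhb is at -0.49, while the 19 members from Pdk1 to Mdh2 lie between -0.17 and 0.29.

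The lactate step was the one role in which every member passed, although under the study's limits on fold and level only Ldhb of its 3 members remained. Lactate dehydrogenase is a tetramer of A and B subunits, of which the A subunit is associated with reduction of pyruvate to lactate and the B subunit with the reverse reaction. Ldha (chromosome 7, 46841475 to 46855627, plus strand, build mm10), which encodes the A subunit, was measured at 953, 894 and 879 normalized CPM across ItpkB-/- libraries 1, 2 and 3 and at 717, 628 and 623 in WT libraries 1, 2 and 3. Every ItpkB-/- library lay above every WT library. Its mean was 909 ± 38.9 in ItpkB-/- and 656 ± 52.7 in WT (SD, n = 3 each). This is a log2 difference of 0.47 (SE 0.12, limma, adjusted p = 0.0854). Without ItpkB-/- library 2 the log2 difference was 0.48, with an adjusted p of 0.174. That fit keeps ItpkB-/- library 1, which was the highest for Ldha and had a granulocyte sum of 7000. The part of the granulocyte signal in the Ldha result was not tested.

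Ldhb (chromosome 6, 142490249 to 142507957, minus strand), for the B subunit, moved the other way. It was at 51.2, 47.4 and 58.7 normalized CPM for ItpkB-/- and at 74.6, 74.4 and 71.7 in WT libraries, again without overlap. The log2 difference was -0.49 (SE 0.15, limma, adjusted p = 0.139), and -0.42 without ItpkB-/- library 2 (adjusted p = 0.344). Slc16a3 (chromosome 11, 120948480 to 120960868, plus strand) encodes Mct4, a monocarboxylate transporter known for lactate export from glycolytic cells. Its transcript was rare, at 11.3, 19.7 and 8.13 normalized CPM for ItpkB-/- and 2.74, 6.58 and 3.35 in WT libraries, which corresponds to 52, 127 and 62 reads against 11, 44 and 18. The lowest ItpkB-/- library was above the highest WT library. Its log2 difference of 1.41 (SE 0.38, adjusted p = 0.105) was the largest of the set, and 1.09 without ItpkB-/- library 2 (adjusted p = 0.31).

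Because Ldha rose and Ldhb fell, the B form made up a smaller part of the lactate dehydrogenase signal. Levels of different genes are compared per kb of exon (the union of the exons in GENCODE M21). On this scale Ldhb was 18.0%, 19.99% and 19.5% of the sum of Ldha and Ldhb in WT libraries 1, 2 and 3 and 10.2%, 10.1% and 12.3% in ItpkB-/- libraries. The shares did not overlap and averaged 19.2% ± 1.043 and 10.9% ± 1.29 (SD, n = 3 each). They combine the same values as the gene tests and carry no test of their own. With the length of the longest transcript in place of the exon union, the means were 13.5% and 7.44%.

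**Figure D2:**
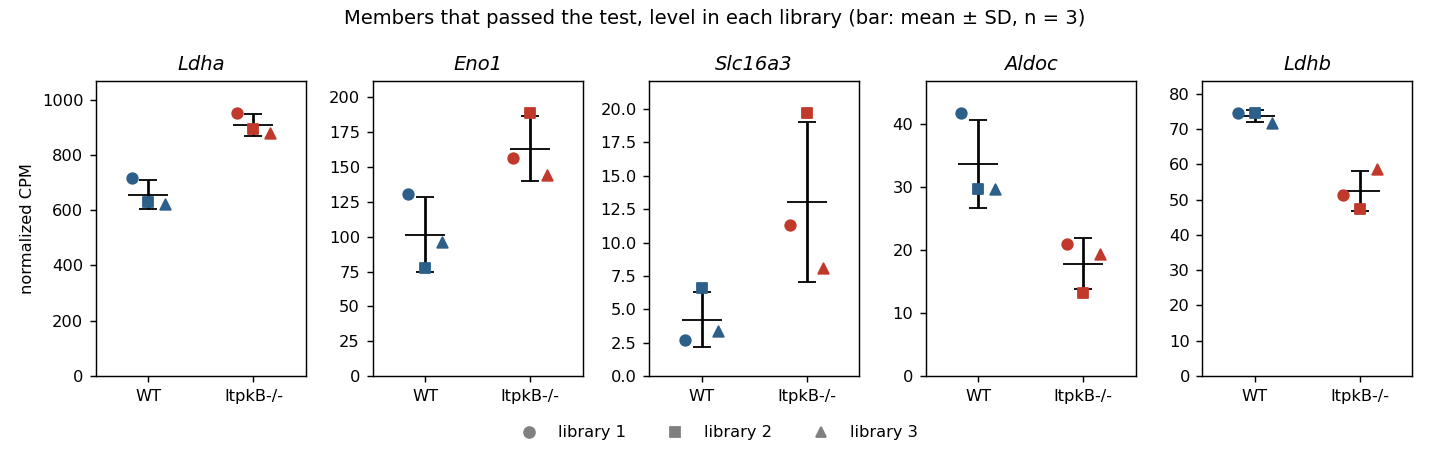
Level in normalized CPM (linear axis from 0) of the 5 members that passed the test, with 1 point per library, shaped by its number, and bars for the mean and SD (n = 3). In each panel the libraries of the genotypes do not overlap: Ldha, Eno1 and Slc16a3 are higher and Aldoc and Ldhb lower in ItpkB-/- cells.

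The 250 bases upstream of the RefSeq start (GRCm38.p6) are shown for these 3 lactate genes, the step at which all members passed. Both Myc factors and hypoxia-inducible factors (HIF) are known to act on promoters of glycolytic genes. Capitals mark ACGTG or GCGTG on either strand, the core of a HIF response element. CACGTG, the E-box that Myc and Max bind, contains ACGTG on both strands. The Ldha window (chr7:46845554-46845803, plus strand) is the one of its 2 RefSeq starts nearest to the principal GENCODE transcript. The others are chr11:120948817-120949066 (Slc16a3, plus strand) and chr6:142507958-142508207 (Ldhb, minus strand).
Ldha: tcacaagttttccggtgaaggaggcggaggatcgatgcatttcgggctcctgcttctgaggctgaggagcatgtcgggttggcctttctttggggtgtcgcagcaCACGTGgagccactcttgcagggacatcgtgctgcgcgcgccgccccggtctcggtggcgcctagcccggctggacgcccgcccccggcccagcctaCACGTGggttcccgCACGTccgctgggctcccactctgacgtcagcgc
Slc16a3: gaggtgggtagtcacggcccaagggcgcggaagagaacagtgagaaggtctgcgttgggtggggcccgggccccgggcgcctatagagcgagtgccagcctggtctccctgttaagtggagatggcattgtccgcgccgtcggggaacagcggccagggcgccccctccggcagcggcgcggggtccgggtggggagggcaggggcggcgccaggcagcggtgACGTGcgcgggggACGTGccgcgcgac
Ldhb: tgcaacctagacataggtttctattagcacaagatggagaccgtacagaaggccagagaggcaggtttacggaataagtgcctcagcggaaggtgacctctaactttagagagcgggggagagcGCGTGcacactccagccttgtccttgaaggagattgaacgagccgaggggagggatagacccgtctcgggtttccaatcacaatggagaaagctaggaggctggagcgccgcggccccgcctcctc
The Ldha window shown holds the core at 3 places, of which 2 are CACGTG, Slc16a3 at 2 and Ldhb at 1. The other Ldha window (chr7:46846832-46847081) holds the core at 1 place and no CACGTG. Its start lies 49 bases from a principal start, against 35 for the window shown. Of all 32851 RefSeq windows of this length, 38.6% hold ACGTG or GCGTG and 6.02% hold CACGTG. Among the members, 38 of 40 had a window, and 40 of their 56 windows (71.4%) held the core and 5 (8.93%) CACGTG. Some genes have more than 1 window, such as Ogdh with 6 that partly overlap, so windows are not independent. By gene, 28 of the 38 held the core in a window. The member windows were also richer in G and C, at a mean of 59.1% against 53.2%, and the part of base composition in the motif share was not tested. A match is a string of letters in this window and does not show that a factor binds there.

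Between fructose bisphosphate and pyruvate, 1 of 10 members rose, 1 fell and 8 did not pass. Eno1 (chromosome 4, 150236721 to 150248879, plus strand), the ubiquitous enolase, which forms phosphoenolpyruvate, was at 157, 189 and 144 normalized CPM for ItpkB-/- and 131, 77.7 and 96.2 in WT libraries. The lowest ItpkB-/- library exceeded the highest WT library. The log2 difference was 0.70 (SE 0.19, limma, adjusted p = 0.103), and 0.59 without ItpkB-/- library 2 (adjusted p = 0.268). The mouse genome holds near-identical copies of several glycolytic genes, among them Eno1, Gapdh and Ldha, and how reads were divided between such copies is uncertain.

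Aldoc (chromosome 11, 78322968 to 78327781, plus strand), aldolase C, is the aldolase known from brain. It stood at 20.9, 13.2 and 19.4 normalized CPM for ItpkB-/- and 41.8, 29.6 and 29.6 in WT libraries, with no overlap. Its log2 difference was -0.89 (SE 0.24, limma, adjusted p = 0.102), and -0.69 without ItpkB-/- library 2 (adjusted p = 0.268). Aldoa, which encodes the main aldolase of these cells, ranged from 314 to 426 in ItpkB-/- and from 358 to 370.1 in WT libraries, a log2 difference of -0.03 (adjusted p = 0.942). Per kb of exon, Aldoc was 7.58% ± 1.41 of the 2 aldolases in WT and 4.38% ± 1.51 in ItpkB-/- cells (SD, n = 3 each), and these shares did not overlap.

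The next enzymes of this segment, Pgk1 and Pgam1, missed the limit. Pgk1, phosphoglycerate kinase, which makes the first ATP of the pathway, was at 316, 387 and 302 normalized CPM for ItpkB-/- and 248, 281 and 270.1 in WT libraries (log2 difference 0.32, SE 0.13, limma, adjusted p = 0.271). Pgam1, phosphoglycerate mutase, was at 343, 608 and 385 against 292, 328 and 336 (log2 difference 0.44, SE 0.19, adjusted p = 0.299). In both genes the genotypes did not overlap, and both passed with the replicate number as a block (adjusted p = 0.0474 and 0.0348). The Pgam1 value of ItpkB-/- library 2 lay far above the other 5, and without that library its log2 difference was 0.19.

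The remaining members of the segment overlapped between genotypes. Gapdh, the glyceraldehyde phosphate dehydrogenase often used as a reference gene, was at 2103, 2872 and 1972 normalized CPM for ItpkB-/- and 1833, 1976 and 2199 in WT libraries (log2 difference 0.19, adjusted p = 0.629). Tpi1, triose phosphate isomerase, had a log2 difference of 0.15 (adjusted p = 0.76) and Pkm, pyruvate kinase, of 0.15 (adjusted p = 0.739). Eno2 and Eno3, the enolases known from neurons and muscle, were at 1.49 to 9.2 and 2.95 to 5.97 normalized CPM over the 6 libraries. The highest Eno2 value was in WT library 1, at 9.2, and the other 5 libraries were at 2.83 or below.

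At the entry of glucose, no member passed by limma or edgeR. Slc2a1 and Slc2a3 encode the glucose transporters Glut1 and Glut3. Slc2a1 was at 83.6, 52.5 and 62.5 normalized CPM for ItpkB-/- and 87.0, 79.1 and 94.2 in WT libraries. It was lower in the ItpkB-/- library of each same-numbered pair, with a log2 difference of -0.41 (SE 0.18, adjusted p = 0.307, unadjusted p = 0.0449, and adjusted p = 0.0844 with the block). Slc2a3 was at 184, 116 and 196 against 209, 160.2 and 189.5 (log2 difference -0.20, adjusted p = 0.683), with its lowest value in ItpkB-/- library 2. Per kb of exon both transporters were at like levels in WT cells, with Slc2a3 at 50.9% ± 2.49 (SD, n = 3) of their sum.

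None of the 6 genes from glucose to fructose bisphosphate passed by limma or edgeR, and 1 had an unadjusted p under 0.05. That gene was Pfkl, the liver-type subunit of phosphofructokinase, which catalyses the committed step. It was at 65.6, 73.2 and 94.9 normalized CPM for ItpkB-/- and 102, 109.9 and 89.4 in WT libraries (log2 difference -0.37, SE 0.17, adjusted p = 0.311, with the block 0.127). The muscle-type subunit gene Pfkm did not overlap, with ItpkB-/- libraries at 30.1 to 34.03 against 34.3 to 46.9 (log2 difference -0.32, adjusted p = 0.433), and the platelet-type gene Pfkp had a log2 difference of 0.10. Hexokinase traps glucose in the cell as its phosphate. Hk1 had a log2 difference of 0.11 and Hk2 of 0.24, the latter with ItpkB-/- libraries at 47.4 to 62.0 and WT libraries at 43.3 to 47.0. Gpi1, the phosphoglucose isomerase, was at 495, 754 and 438 against 456, 522 and 488 normalized CPM (log2 difference 0.16).

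**Figure D3:**
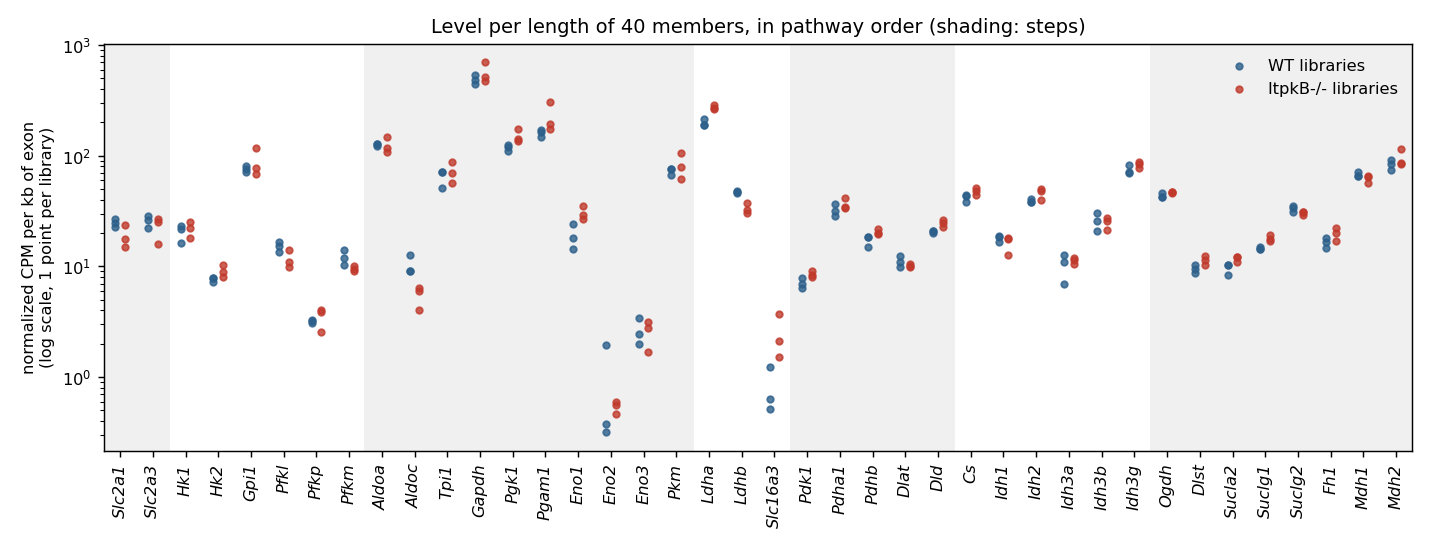
Level of each of the 40 members in normalized CPM per kb of exon (log axis), with 1 point per library, in pathway order with shading by step. With this length (the union of exons) Gapdh, Ldha, Pgam1 and Aldoa are the highest in WT cells, and Slc16a3, Eno2 and Eno3 the lowest.

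Levels per length set the stage on which these differences sit. In WT cells Gapdh was highest, at 485 normalized CPM per kb, followed by Ldha at 198, Pgam1 at 161, Aldoa at 125 and Pgk1 at 119. With the longest transcript as length the order was Gapdh at 609, Ldha at 361, Aldoa at 236, Mdh2 at 185 and Pgam1 at 179.5. Per kb of exon union the lowest were Slc16a3 at 0.794, Eno2 at 0.884, Eno3 at 2.62 and Pfkp at 3.19. Mdh2, the mitochondrial malate dehydrogenase, led the TCA members at 83.2, and Pdk1, a kinase that inhibits pyruvate dehydrogenase, was at 7.09. Within families Eno1 made up 84.8% ± 2.57 of the enolase signal in WT and 90.6% ± 3.14 in ItpkB-/- cells, and these shares did not overlap. Hk1 was 72.3% ± 4.6 of Hk1 and Hk2 in WT and 70.5% ± 3.46 in ItpkB-/- cells, and Pfkl 49.6% ± 3.13 and 46.9% ± 3.99 of the phosphofructokinases (SD, n = 3 each). These last shares overlapped.

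**Figure D4:**
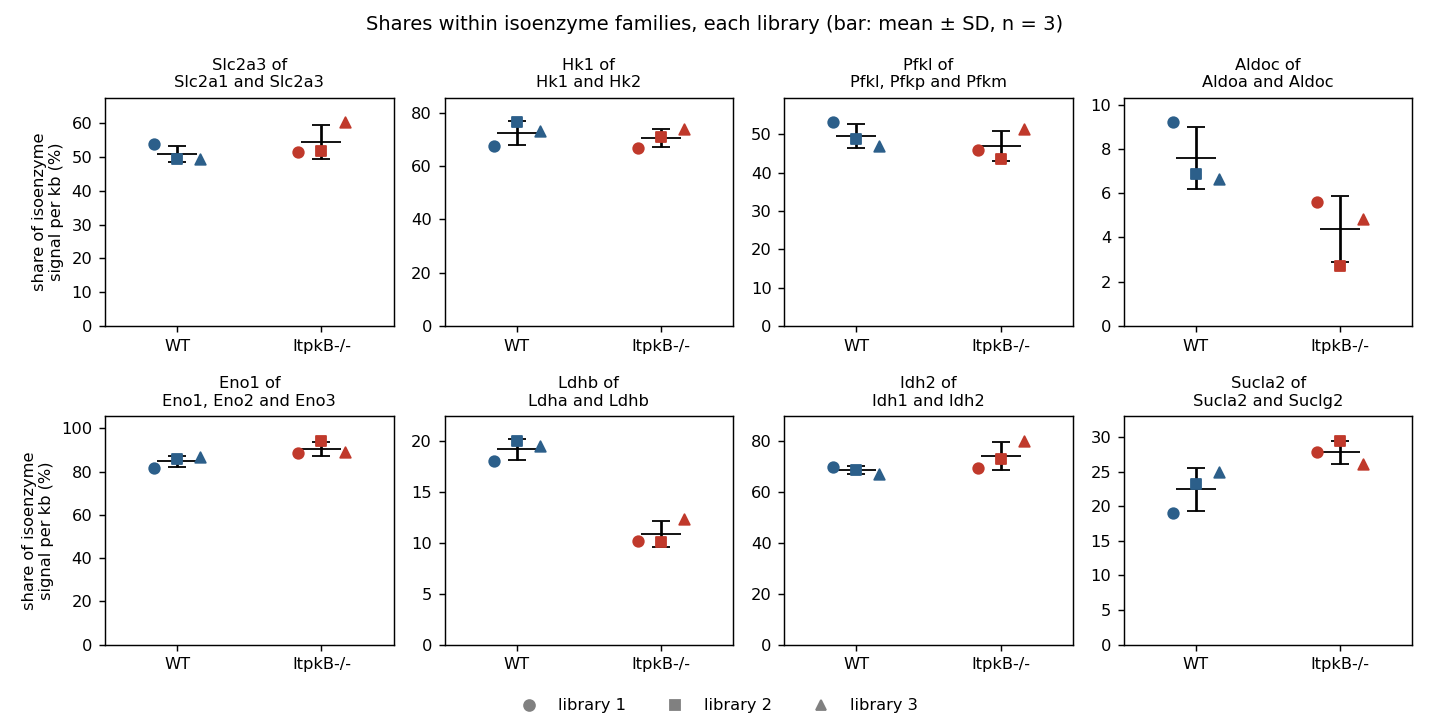
Share of 1 isoenzyme in the signal per kb of its family, in percent (axes from 0), with 1 point per library, shaped by its number, and bars for the mean and SD (n = 3). The groups are apart for Aldoc, Eno1, Ldhb and Sucla2 and overlap for Slc2a3, Hk1, Pfkl and Idh2, and the Ldhb share is 18.0% to 19.99% in WT and 10.1% to 12.3% in ItpkB-/- libraries.

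The 19 members of pyruvate dehydrogenase and the TCA cycle were shifted by small amounts, and none passed by limma, edgeR or DESeq2 or at an unadjusted p under 0.05 by limma. Their log2 differences ran from -0.17 (Idh1) to 0.29 (Suclg1), 14 of 19 were positive and the median was 0.18, or 0.17 without ItpkB-/- library 2. Leaving out each library in turn gave medians from 0.14 without WT library 1 (13 positive) to 0.25 without WT library 2 (15 positive). WT library 1 was the lowest of the 6 libraries in 15 of the 40 members, against 21.5% of all genes tested. In 8 of the 19 members every ItpkB-/- library was above every WT library and in 1, Mdh1, below. Over all 40 members, 18 did not overlap between genotypes, 14 higher and 4 lower, which is 45% of the set beside 21.3% of all genes tested. The members share their libraries, so these counts are not independent of each other.

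Pyruvate dehydrogenase converts pyruvate to acetyl-CoA. Pdk1, its inhibiting kinase, was at 70.6, 65.4 and 63.0 normalized CPM for ItpkB-/- and 49.98, 61.6 and 54.0 in WT libraries (log2 difference 0.27, limma, adjusted p = 0.432). Pdhb, the beta subunit of the first enzyme, had a log2 difference of 0.24, and so had Dld, the dihydrolipoamide dehydrogenase, which was at 90.8, 95.7 and 83.6 against 76.6, 77.0 and 73.7 (adjusted p = 0.414, the smallest of this role). For Pdk1, Pdhb and Dld every ItpkB-/- library was above the WT range. Pdha1, the alpha subunit, had a log2 difference of 0.16, and Dlat, the acetyltransferase core, of -0.11, both with overlap.

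From citrate to oxoglutarate, Cs, citrate synthase, which opens the cycle, was at 298, 279 and 255 normalized CPM for ItpkB-/- and 252, 221 and 253 in WT libraries (log2 difference 0.19, limma, adjusted p = 0.497). Idh2, the mitochondrial NADP-dependent isocitrate dehydrogenase, was at 104, 125 and 130.1 against 99.5, 104.3 and 98.3 (log2 difference 0.24, adjusted p = 0.432, the smallest of this role). Idh1, its cytosolic counterpart, was at 49.2, 50.04 and 35.0 against 46.0, 51.4 and 52.3, with the lowest value in ItpkB-/- library 3 (log2 difference -0.17). The NAD-dependent enzyme of the cycle is built from the products of Idh3a, Idh3b and Idh3g, whose log2 differences were 0.17, -0.04 and 0.16. All 5 Idh genes overlapped between genotypes.

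From oxoglutarate to oxaloacetate, Suclg1, the alpha subunit shared by both succinyl-CoA ligases, had the smallest p of the TCA members. It was at 81.5, 89.7 and 77.7 normalized CPM for ItpkB-/- and 66.4, 69.6 and 66.3 in WT libraries (log2 difference 0.29, SE 0.14, limma, adjusted p = 0.337). Sucla2, the subunit of the ADP-forming ligase, was at 48.1, 48.8 and 44.0 against 33.1, 40.8 and 41.3 (log2 difference 0.29), and Suclg2, of the GDP-forming ligase, at 145, 135 and 144 against 163, 156 and 144 (log2 difference -0.12). Per kb of exon, Sucla2 was 22.5% ± 3.07 of Sucla2 and Suclg2 in WT and 27.8% ± 1.67 in ItpkB-/- cells (SD, n = 3 each), without overlap. Ogdh and Dlst, components of the oxoglutarate dehydrogenase complex, had log2 differences of 0.10 and 0.26, both without overlap. Fh1, fumarase, had a log2 difference of 0.26, Mdh2 of 0.18 and Mdh1, the cytosolic malate dehydrogenase, of -0.12.

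**Figure D5:**
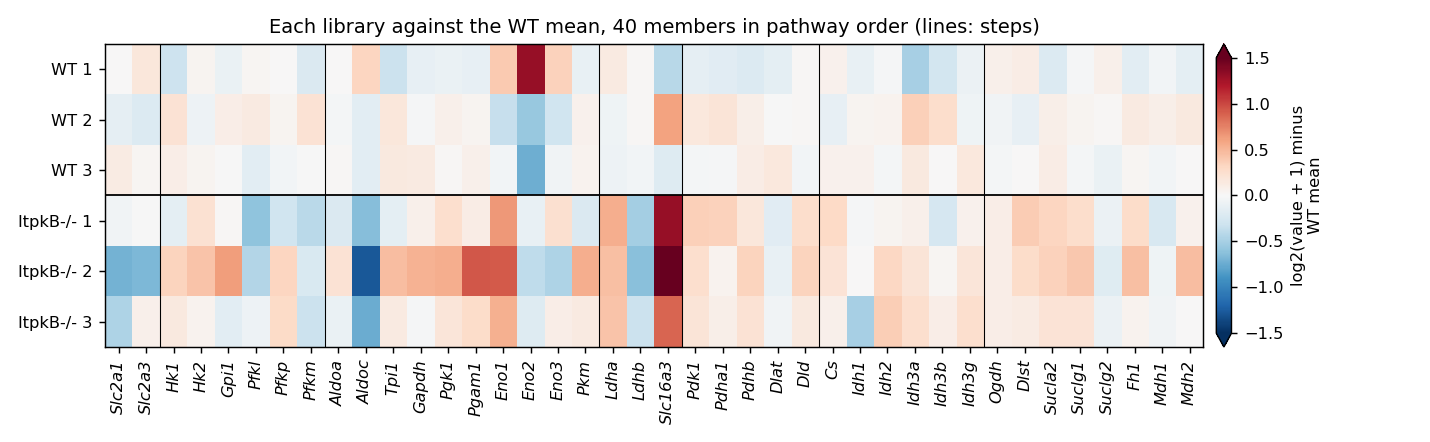
Each library's log2(value + 1) minus the WT mean, for 40 members in pathway order (red higher, blue lower, colours saturate at 1.5). In ItpkB-/- library 2 the red block runs from Hk1 to Pkm with gaps, whereas Ldha and Slc16a3 are red and Aldoc and Ldhb blue in all 3 ItpkB-/- libraries.

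Many of the positive values of glycolytic members came from 1 library. ItpkB-/- library 2 was the highest of the 6 libraries in 18 of 40 members and in 12 of the 21 of uptake, glycolysis and lactate, against 21.3% of all genes tested. The summed level of those 21 members was 5846, 7593 and 5818 normalized CPM over ItpkB-/- libraries 1, 2 and 3, and 5313, 5542 and 5747 in WT libraries. Without ItpkB-/- library 2 the log2 difference of Gapdh went from 0.19 to 0.03, of Gpi1 from 0.16 to -0.07, of Pkm from 0.15 to -0.04 and of Tpi1 from 0.15 to -0.01. The median over these 21 members went from 0.11 to -0.01. This library also had the highest sums of the 19 granulocyte genes (19135) and of 18 G2/M genes (3171, against 1417 and 2444 in the other ItpkB-/- and 1044 to 1706 in WT libraries), and the part of either in the result was not tested. In a sorted pool, more cells of another type and more RNA per cell cannot be told apart.

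Every call in this set depends on the libraries used. Without ItpkB-/- library 2, and likewise without WT library 3, no member passed by limma, in fits that had no block. Of all genes 2.22% (0.958% higher and 1.26% lower) and 0.616% still passed. An unadjusted p under 0.05 was found for 5 and 6 members, and the share of all genes for this is not given. Without WT library 1 only Eno1 and Ldha passed (2.49% of all genes), and without WT library 2 only Slc16a3 (2.47%). Without ItpkB-/- library 1, where 6.97% of all genes passed, Ldhb lost its call (adjusted p = 0.162), and Pgam1 (0.116) and Slc2a1 (0.105) gained one. Without the filter on low values, which put more genes into the adjustment, 2.9% of all genes passed and of the members only Ldha, and the other 4 had adjusted p from 0.156 to 0.187. The log2 differences kept their sign in all of these fits: 0.44 to 0.54 for Ldha, 0.53 to 0.90 for Eno1, 1.09 to 1.72 for Slc16a3, -1.01 to -0.69 for Aldoc and -0.57 to -0.42 for Ldhb. With the replicate block 5 members rose and 4 fell, where 18.1% of all genes passed (9.15% higher and 8.97% lower). The 4 added were Pgk1, Pgam1, Pfkl and Slc2a1. Adjusted p in this limma fit was 0.0027 for Ldha, 0.0098 for Slc16a3, 0.0109 for Eno1, 0.0133 for Aldoc and 0.0391 for Ldhb.

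Other genes of the same pathways came from a list of 103 names beyond the members, of which 99 were in the table and 80 were tested. None rose by limma or edgeR (4 had an unadjusted p under 0.05 and a positive difference by limma), 3 fell and 77 did not pass, which is 3.75% beside 5.5% of all genes. The median log2 difference of the 80 was 0.00. Txnip, whose product inhibits glucose uptake, fell: it was at 674, 405 and 664 normalized CPM for ItpkB-/- and 1324, 831 and 893 in WT libraries. Its log2 difference was -0.81 (SE 0.22, limma, adjusted p = 0.107, and 0.000443 with the block). In fits that had no block, the call was lost without ItpkB-/- library 2 (adjusted p = 0.26) and without any 1 WT library (0.155 to 0.289). It was also lost with no filter on low values (limma, adjusted p = 0.183). The log2 differences there ran from -0.94 to -0.57.

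Among 11 genes of the hypoxia response only Epas1 passed. Epas1, which encodes Hif-2 alpha, was near the detection floor, with 4, 1 and 7 reads in ItpkB-/- and 17, 20 and 29 reads in WT libraries (log2 difference -1.67, limma, adjusted p = 0.0636). With the block 5 of the 11 passed, Epas1, Arnt, Hif3a and Meis1 as lower and Cited2 as higher, where 18.1% of all genes did. The call of Epas1 was lost without ItpkB-/- library 2 (adjusted p = 0.189), WT library 1 (0.165) or WT library 3 (0.275), with log2 differences of -1.43, -1.65 and -1.51. Hif1a, the main HIF of glycolytic genes, was at 51.5 to 60.6 normalized CPM for ItpkB-/- and 52.9 to 62.2 in WT libraries (log2 difference -0.06, adjusted p = 0.902). Transcript level says little of the activity of Hif1a, which is controlled by protein breakdown. Me1, the cytosolic malic enzyme, fell as well, from 21, 26 and 21 reads in WT to 1, 4 and 21 reads in ItpkB-/- libraries (log2 difference -1.44, adjusted p = 0.148), and did not pass by edgeR (adjusted p = 0.248). Its call was also lost without any 1 library other than ItpkB-/- library 3 (adjusted p from 0.243 to 0.354, log2 differences from -1.503 to -1.10). By limma the Me1 call was lost as well with 0.5 added to values in place of 1 (adjusted p = 0.156) or with scaling by library totals (0.1555). It was likewise lost with no filter on low values (limma, adjusted p = 0.187) and by DESeq2 (adjusted p = 0.257).

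Succinate dehydrogenase, the TCA cycle step that is also part of the respiratory chain, is not on the member list, and none of its 4 subunit genes passed by limma or edgeR or had an unadjusted p under 0.05 by limma. Sdha was at 0.00, Sdhb at 0.31, Sdhc at 0.13 and Sdhd at 0.23 on the log2 scale, with adjusted p from 0.37 (Sdhb) to 0.995 (Sdha) by limma. In the remaining lists the smallest p belonged to Lias, lipoic acid synthetase (log2 difference 0.74, adjusted p = 0.174, and 0.0631 with the block), and Slc16a1, which encodes the monocarboxylate transporter Mct1 (0.44, adjusted p = 0.256). G6pdx, which opens the pentose phosphate pathway, followed (0.50, adjusted p = 0.316, 0.076 with the block and 0.0682 without ItpkB-/- library 3). Its genotypes overlapped, and without ItpkB-/- library 2 its log2 difference was 0.23 (limma, adjusted p = 0.705). Then came Gpd1, a glycerol phosphate dehydrogenase (-1.10, adjusted p = 0.363). Slc16a1 was at 81.9, 69.5 and 72.1 normalized CPM for ItpkB-/- and 42.8, 63.4 and 59.2 in WT libraries, without overlap, and passed with the block (adjusted p = 0.0973).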

How the data were processed

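RNA of sorted LT-HSC was sequenced in 6 libraries, 3 per genotype, from 1 to 5 ng of input by NuGEN Ovation chemistry, so strand is not marked. Per the submitters' processing notes, CASAVA 1.8.2, cutadapt, TopHat2 2.0.8b, build mm10, Partek and edgeR were used. The series design text gives TopHat 1.4.1 with Bowtie2 and Partek 6.6 instead. The deposited signal is gene counts that the authors divided by 1 factor per library, on the scale of CPM. In each library 100% of values lay within 0.01 of a whole number of reads, which allowed count tests as alternatives.

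The main test was limma 3.58.1 (R 4.3.3) on log2(value + 1) with a trended prior variance. Genes needed a value of 1 in 3 libraries, and 12008 passed. Low genes have understated changes on this scale. Adjusted p is by Benjamini-Hochberg across the genes tested, and a gene was called at 0.15, the false discovery limit of the series design text, whose limits on fold and level were an alternative. edgeR 4.0.16 and DESeq2 1.42.0 were run on recovered reads. Depth was 4024203 to 7470329 reads per library. The floor of 3 reads covers counting error only. Library 1, 2 and 3 of a genotype are separate pools.

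Members and lists were chosen with earlier results of these data known. Members are all nameable. Full values are given for those called with or without the block, for the smallest p of each role and for isoenzyme families. Of the other genes, those called, the smallest p of each list and Txnip, Hif1a and the Sdh genes are named, and 1 gene under this rule is not reported here. Deviations from genotype means correlated at 0.296, 0.268 and 0.284 across genes for libraries of equal number and at most -0.0475 for all others. Deviations within a genotype add up to 0, so the negative values largely follow from the positive ones and are no separate support. Libraries with the same title number thus deviated together, yet the main fit has no block. A replicate block was added as an alternative only. The labels do not give the meaning of the title numbers. Values with the block stand beside the results whose call it altered, and are given for the called members and Txnip. Positions and exon lengths are from GENCODE M21. Exons of Slc2a1, Hk1, Gpi1, Pfkp, Pfkm, Aldoa, Tpi1, Gapdh, Pdha1, Idh3b and Mdh1 overlap a gene on the other strand, whose reads cannot be told apart.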

Additional observations from a re-analysis of the deposited data

How the results depend on the processing

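No member was called in every fit. Each call was tied to the libraries used, and those of Eno1, Slc16a3, Aldoc and Ldhb also to the filter on low values. With no filter on low values 1 member passed as higher, 0 as lower and 1 other pathway gene as lower. With a mean log2(value + 1) above 4 before testing, 386 genes and 1 other pathway gene as lower passed. With the replicate block, which treats same-numbered libraries as pairs, 2176 genes passed, 5 members rose and 4 fell, and 5 other pathway genes rose and 6 fell. With the limit on the adjusted p set to 0.05, 182 genes, 0 members as higher, 0 as lower and 0 other genes as lower passed by limma without the block, against 7 members with it. Under the study's limits on fold and level 387 genes passed, 1 member as higher and 1 other gene as lower. Leaving out each library in turn gave 74 to 837 genes, 0 to 4 members as higher, 0 to 2 as lower, and 0 to 1 and 0 to 3 other genes as higher and lower. In these fits the sign changed for genes that were not called, with log2 differences of -0.159 to 0.0589 for Aldoa, -0.596 to 0.422 for Eno2, -0.194 to 0.168 for Eno3, -0.0675 to 0.325 for Gpi1, -0.13 to 0.00192 for Hif1a, -0.0462 to 0.24 for Hk1, -0.076 to 0.35 for Idh3a, -0.177 to 0.0885 for Idh3b, -0.00968 to 0.305 for Pfkp, -0.0415 to 0.342 for Pkm, -0.0597 to 0.0596 for Sdha, -0.00345 to 0.221 for Sdhc, -0.338 to 0.0352 for Slc2a3 and -0.0103 to 0.299 for Tpi1. Sdha was at 0.00170 with DESeq2 size factors and 0.00295 by DESeq2. With the longest transcript as length, the mean shares in ItpkB-/- and WT cells were 81.5% and 82.7% for Hk1, 55.6% and 58.7% for Pfkl, 2.78% and 4.87% for Aldoc, 95.5% and 92.2% for Eno1, 7.44% and 13.5% for Ldhb, and 33.4% and 27.4% for Sucla2, and the WT share of Idh2 was 72.2%. The cause of the other changes was not tested. Among single-gene results under settings that kept all libraries, 494 kept their direction and side of the limit, 7 gained a call, 10 lost it and 2 changed sign.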
